A study of Homo sapiens with 2 samples.

Results

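The transcripts of 10 receptor tyrosine kinases, namely EPHA2, EGFR, ERBB2, ERBB3, MET, FGFR3, FGFR4, INSR, IGF1R and AXL, were followed in Hep3B cells, an established human hepatocellular carcinoma line. They were taken by gene symbol from the deposited RNA-seq table, in which 9 of the 10 had values among 11511 genes in all. AXL was not listed. The treated cells received A4368, a compound the labels name by code alone, for 24 h at a dose of 25 µM, and the controls were Hep3B cells left without treatment. Each condition was 1 library, both came from this single cell line, and a vehicle is not mentioned in the sources used here. Values are taken to be FPKM, fragments scaled to the transcript's length and to the mapped fragments of the library, a unit per length in which genes can be compared. The depth of the libraries is unknown. With no replicates, no value carries an error, and the differences below are between these libraries only, without p-values.

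The liver identity of the cells was visible in all 10 hepatocyte markers chosen, which had values in both libraries, with ALB at 8930 FPKM with A4368 and 9183 FPKM in the control. None of 8 endothelial markers was listed. Of 8 leukocyte markers 3 were listed, with a summed level of 39.9 FPKM with A4368 and 50.1 FPKM in the control, and the pan-leukocyte marker PTPRC was not listed. Of the 3, LYZ was at 9.48 FPKM with A4368 and 17.6 FPKM in the control, while CD68 and CD14 lay within 1.2-fold. Of 9 stellate cell and fibroblast markers 3 were listed, at a summed 14.2 FPKM with A4368 and 19.9 FPKM in the control. These differed in direction. LUM was at 11.9 FPKM with A4368 and 17.9 FPKM in the control, and PDGFRA, under 1 FPKM in both libraries, was also lower. RGS5 was higher, at 1.64 FPKM with A4368 and 0.977 FPKM in the control. Of 6 cholangiocyte markers 4 were listed, and these were lower with A4368, at a summed 525 FPKM against 682 FPKM in the control. The part of these markers in the results below was not tested.

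Receptor tyrosine kinases are single-pass membrane proteins that, as a rule, bind a ligand outside the cell and act in pairs. The partners phosphorylate each other and docking proteins inside the cell, from which the RAS-ERK and PI3K-AKT pathways start. In hepatocytes and liver cancer cells the best known are EGFR and its relatives, the HGF receptor MET, the insulin receptor, and FGFR4, which with its co-receptor beta-Klotho reads the bile acid hormone FGF19. EPHA2 differs from these in that its ligands, the ephrin-A proteins, sit on the surface of neighbouring cells. EPHA2 transcription is itself known to respond to RAS-ERK signalling.

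EPHA2 and FGFR3 had the lowest and the highest ratio of A4368 to control among the 9 receptors, so the DNA before their start sites is shown. The sequences are the 250 bases upstream of the start site in the RefSeq promoter table, on build GRCh38.p14, matched by symbol. Entries were found for 9 of the 10 symbols, and not for ERBB3. The EPHA2 window is chr1:16156070-16156319 on the minus strand and the FGFR3 window is chr4:1793043-1793292 on the plus strand. Both are written 5′ to 3′, with matches to the motifs searched in capitals.
EPHA2: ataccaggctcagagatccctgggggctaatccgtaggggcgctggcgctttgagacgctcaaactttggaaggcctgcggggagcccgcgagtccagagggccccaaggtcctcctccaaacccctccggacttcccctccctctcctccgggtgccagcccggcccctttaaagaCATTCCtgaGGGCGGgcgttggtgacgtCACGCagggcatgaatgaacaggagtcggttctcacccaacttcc
FGFR3: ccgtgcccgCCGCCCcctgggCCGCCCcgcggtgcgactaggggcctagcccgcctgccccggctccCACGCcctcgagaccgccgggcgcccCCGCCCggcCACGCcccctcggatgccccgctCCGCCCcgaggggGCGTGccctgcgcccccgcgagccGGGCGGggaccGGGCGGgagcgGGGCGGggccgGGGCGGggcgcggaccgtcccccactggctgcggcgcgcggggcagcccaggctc

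The motifs were the AP-1 site TGANTCA, the TEAD site GGAATG, the GC box GGGCGG, the E-box CACGTG, the core of the aryl hydrocarbon receptor site GCGTG and the ETS core CCGGAA, each on both strands. The EPHA2 window held 1 TEAD match, whose first base lies 73 bases before the start site, 1 GC box and 1 aryl hydrocarbon receptor core. A TEAD match was not particular to EPHA2, as a window of EGFR, whose log2 ratio was -0.02, and a window of AXL also held one. The FGFR3 window held 8 GC boxes and 3 aryl hydrocarbon receptor cores. In neither window did matches overlap, with 0 bases in more than 1 match. Among 35116 promoter entries of the same length, a TEAD match occurred in 11.9%, a GC box in 42.6%, an aryl hydrocarbon receptor core in 32.2%, an ETS core in 14.5%, an AP-1 match in 6.57% and an E-box in 6.34%. The windows differed in base composition, with 63.2% G or C for EPHA2 and 86.8% for FGFR3. These letters are a description of the windows and not binding sites.

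The 9 receptors spanned a wide range of levels, and FGF receptors stood at the top. FGFR4 was at 151 FPKM with A4368 and 155 FPKM in the control, and FGFR3 at 114 FPKM with A4368 and 103 FPKM in the control. ERBB3 and EGFR followed close together, ERBB3 at 52.9 FPKM with A4368 and 56.4 FPKM in the control and EGFR at 51.9 FPKM with A4368 and 52.7 FPKM in the control. ERBB2, MET and EPHA2 formed the next tier, between 16.2 and 28.3 FPKM over both libraries, and INSR and IGF1R were lowest. FGFR4 had 21.8 times the FPKM of IGF1R with A4368 and 19.4 times in the control. In the table as a whole, 4.72% of genes lay above FGFR4 with A4368 and 4.75% in the control, while 68.9% lay above IGF1R with A4368 and 64.8% in the control. The order of the receptors was the same in both libraries except that EPHA2 stood 7th behind MET with A4368 and 6th ahead of MET in the control. With 1 library each there is no spread against which neighbours in this order could be told apart.

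**Figure D1:**
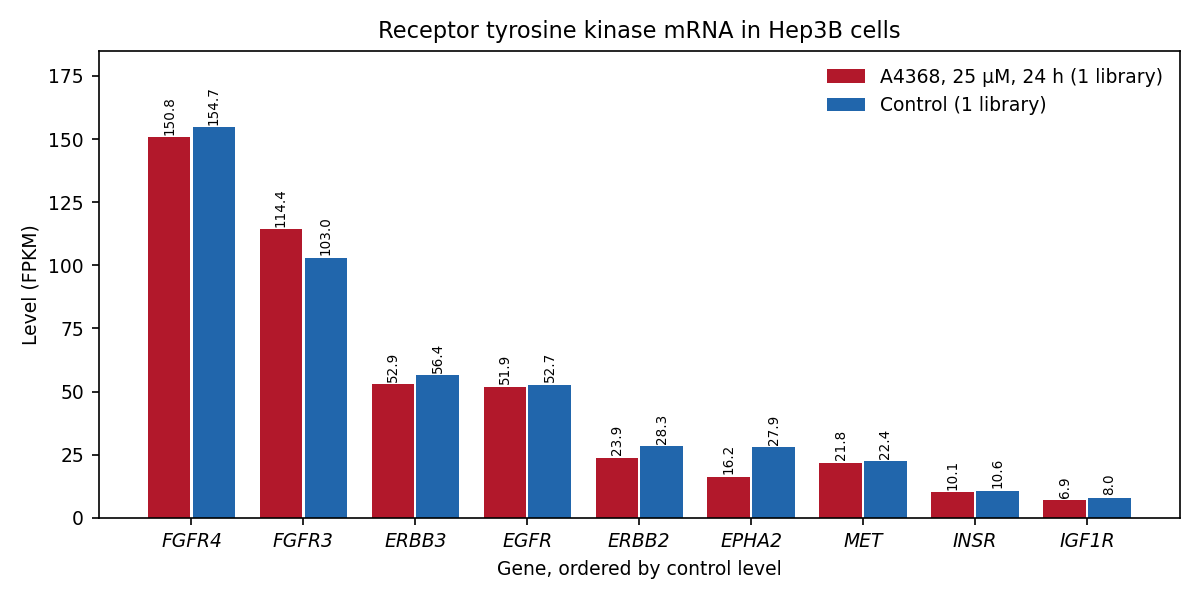
Level in FPKM (vertical axis) of each of the 9 receptors with values, as 1 bar per library, A4368 in red and control in blue, ordered by the control. The values of a pair lie within 1.2-fold for all receptors but EPHA2, which stands at 16.2 FPKM with A4368 and 27.9 FPKM in the control. FGFR3, at 114 FPKM with A4368 and 103 FPKM in the control, has a similar gap in bar height at a higher level.

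Taken over the 9 receptors, the summed level was 449 FPKM with A4368 and 464 FPKM in the control. FGFR3 and FGFR4 made up 59.1% of that sum with A4368 and 55.5% in the control, the 3 ERBB receptors 28.7% with A4368 and 29.6% in the control, and EPHA2 3.60% with A4368 and 6.01% in the control. Without EPHA2 the sums were 433 FPKM with A4368 and 436 FPKM in the control.

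Ratios were computed as log2((A4368 FPKM + 1)/(control FPKM + 1)) and a 1.5-fold limit was set on that scale, while folds in words are plain ratios of FPKM. All 9 receptors passed the filter of a mean of at least 1 FPKM. Of these, 1 was lower by at least 1.5-fold and 0 were higher by that much, where 2.12% of the 11238 genes kept were lower and 1.08% were higher by that limit. At a 2-fold limit 0 of the 9 were lower or higher, where 0.436% of kept genes were lower and 0.116% higher. The other 8 receptors lay within 1.2-fold of the control. The median log2 ratio of the 9 was -0.07, and that of all kept genes was 0.01. As deposited 8 of the 9 had lower values with A4368, where 48% of all kept genes did, but after a rescaling of both libraries to one sum that left out the 50 highest genes 5 of the 9 were lower, where 39.1% of all kept genes were. On that scale EPHA2 was still the receptor past 1.5-fold, where the kept genes past it were 260 lower (2.31%) and 259 higher (2.3%), against 238 and 121 as deposited. EGFR, MET and FGFR4 were the receptors whose sign turned with the scaling.

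EPHA2 was the receptor that differed. It stood at 16.2 FPKM with A4368 and at 27.9 FPKM in the control, 1.73-fold lower with the compound, a log2 ratio of -0.75. Of the 11238 kept genes, its ratio was the 124th from the lowest, so that 1.10% of genes had a ratio as low or lower. Among the 3447 genes with a mean of 20 to 100 FPKM, the class of EPHA2, 1.36% were lower by at least 1.5-fold. The mean of EPHA2, 22.0 FPKM, lay near the lower edge of that class, and no share is given for the class below. The log2 ratio stayed between -0.78 and -0.64 under every alternative tried, though a change of the filter cannot alter it. Within the EPHA2 transcripts 0.77% of the distinct 31-base words also occur in another gene, nearly all of them in EPHB2, and no other gene of GENCODE release 29 overlaps its exons. In bulk RNA, fewer cells with the transcript and less transcript per cell cannot be told apart.

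The ligands of EPHA2 differed in direction among themselves. EFNA1, the ephrin-A best known as its partner in epithelial cells, was 1.28-fold lower, at 15.9 FPKM with A4368 and 20.3 FPKM in the control. EFNA2 was at 18.5 FPKM with A4368 and 15.1 FPKM in the control, and EFNA4 at 14.0 FPKM with A4368 and 11.3 FPKM in the control. EFNA3 was near 1.01 FPKM in both libraries and EFNA5 was under 1 FPKM in both. None of the 4 ephrin-A genes kept passed 1.5-fold, and their median log2 ratio was 0.14. With 2.12% of all kept genes lower and 1.08% higher by that limit, such a count is near the background.

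The kept genes nearest to EPHA2 by distance in the log2(FPKM + 1) values of both libraries were CYR61, TNFAIP8 and TEAD2. CYR61, which encodes a secreted matricellular protein, was at 16.0 FPKM with A4368 and 26.3 FPKM in the control. TNFAIP8, a TNF-induced gene, was at 17.2 FPKM with A4368 and 27.7 FPKM in the control, and TEAD2, a DNA-binding partner of the YAP coactivator, at 17.2 FPKM with A4368 and 30.0 FPKM in the control. In all, 14 genes lay within a distance of 0.25. Likeness over 2 libraries is only likeness of both levels.

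The ERBB receptors were close to the control. ERBB2, which has no known ligand and acts as a partner for the others, had the largest difference among them, at 23.9 FPKM with A4368 and 28.3 FPKM in the control, 1.19-fold lower with a log2 ratio of -0.24. In all, 13.3% of kept genes had a ratio as low or lower than that of ERBB2. ERBB3, a receptor with a weak kinase that signals in pairs with its relatives and carries many docking sites for PI3K, was 1.07-fold lower (52.9 FPKM with A4368, 56.4 FPKM in the control). EGFR was 1.02-fold lower, and its log2 ratio turned from -0.02 to 0.03 when the libraries were rescaled. ERBB4 was not listed. Within each library EGFR had 2.18 times the FPKM of ERBB2 with A4368 and 1.86 times in the control, and the summed ERBB level was 129 FPKM with A4368 and 137 FPKM in the control. MIEN1 and PGAP3 overlap 5.53% and 1.88% of the ERBB2 exon bases on the opposite strand in GENCODE release 29, and the strandedness of the libraries is not given in the sources used here. MIEN1 was at 55.7 FPKM with A4368 and 53.4 FPKM in the control, and PGAP3 at 7.72 FPKM with A4368 and 7.59 FPKM in the control.

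Of 11 ERBB ligands 4 had values, and none of these differed by 1.5-fold. As 2.12% of all kept genes were lower and 1.08% higher by that limit, this is near the background. Epiregulin (EREG), a ligand of EGFR and ERBB4, was the main one, at 30.1 FPKM with A4368 and 37.5 FPKM in the control, 1.25-fold lower. Betacellulin (BTC) was at 1.72 FPKM with A4368 and 2.22 FPKM in the control, amphiregulin (AREG) at 1.51 FPKM with A4368 and 1.60 FPKM in the control, and NRG3 at 1.22 FPKM with A4368 and 1.06 FPKM in the control. EGF, TGFA, HBEGF and the ERBB3 ligand NRG1 were not listed.

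FGFR4 and FGFR3 differed little between the libraries. FGFR4, the main FGF receptor of hepatocytes, was 1.03-fold lower with A4368, with a log2 ratio of -0.04 that became 0.01 after the rescaling. FGFR3 was the single receptor of the 9 with a higher value under every alternative, 1.11-fold higher at 114 FPKM with A4368 and 103 FPKM in the control, a log2 ratio of 0.15. As 75.6% of kept genes had a ratio as low or lower, FGFR3 was well inside the range of the other genes. FGFR4 remained the more abundant of the pair in both libraries.

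The relatives outside the list differed in sign. FGFR2 was 1.62-fold lower, at 11.5 FPKM with A4368 and 18.6 FPKM in the control, whereas FGFR1 was 1.24-fold higher, at 5.83 FPKM with A4368 and 4.71 FPKM in the control. The higher values of FGFR3 and FGFR1 offset the lower ones of FGFR2 and FGFR4 in the FPKM as deposited, and the summed level of the 4 FGF receptors was 282 FPKM with A4368 and 281 FPKM in the control. KLB, which encodes beta-Klotho, was at 19.1 FPKM with A4368 and 18.8 FPKM in the control, so that FGFR4 had 7.88 times its FPKM with A4368 and 8.23 times in the control. FGFRL1, a receptor that lacks a kinase domain, was 1.28-fold higher, at 27.4 FPKM with A4368 and 21.4 FPKM in the control.

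Of 15 FGF ligands and co-receptors 7 had values, and none passed 1.5-fold on the log2 scale. That is near the background, as 2.12% of all kept genes were lower and 1.08% higher by that limit. FGF19, the ligand of the FGFR4 and beta-Klotho pair, was at 3.35 FPKM with A4368 and 5.16 FPKM in the control, a log2 ratio of -0.50. FGF2 was at 1.61 FPKM with A4368 and 2.08 FPKM in the control. GPC3, a cell surface heparan sulfate proteoglycan of liver cancer, was the most abundant of the list, at 416 FPKM with A4368 and 432 FPKM in the control. The syndecan gene SDC4 was 1.19-fold lower, at 93.8 FPKM with A4368 and 111 FPKM in the control. FGF19 was the one gene of this list that passed 1.5-fold with a pseudocount of 0.1.

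MET, the HGF receptor, was at 21.8 FPKM with A4368 and 22.4 FPKM in the control, 1.03-fold lower, and its log2 ratio of -0.04 became 0.01 after the rescaling. HGF was not listed. MST1, a relative of HGF, and the genes that act on HGF outside the cell differed in sign among themselves, none by 1.5-fold. By that limit 2.12% of all kept genes were lower and 1.08% higher, so this too is near the background. The protease gene ST14, which encodes matriptase, was 1.28-fold lower, at 14.4 FPKM with A4368 and 18.5 FPKM in the control, and SPINT1, which encodes an inhibitor of matriptase and of HGF activation, was 1.26-fold lower, at 41.0 FPKM with A4368 and 51.7 FPKM in the control. HPN, which encodes the liver protease hepsin, was at 36.6 FPKM with A4368 and 34.1 FPKM in the control, and MST1 at 7.74 FPKM with A4368 and 6.74 FPKM in the control. MST1 has a near-identical copy, MST1L, between which reads could be split, so its value is uncertain.

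The insulin and IGF receptors were the least abundant of the 9. INSR was at 10.1 FPKM with A4368 and 10.6 FPKM in the control, 1.05-fold lower, and IGF1R at 6.93 FPKM with A4368 and 7.95 FPKM in the control, 1.15-fold lower. IGF1R had a log2 ratio of -0.18, and 19.2% of kept genes had a ratio as low or lower. INSR had 1.45 times the FPKM of IGF1R with A4368 and 1.34 times in the control. IGF2, the fetal ligand that binds both, was the abundant partner, at 219 FPKM with A4368 and 218 FPKM in the control. IGF2R, a clearance receptor without a kinase, was at 24.0 FPKM with A4368 and 25.3 FPKM in the control.

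Among the binding proteins of the IGFs, IGFBP3 was 1.55-fold lower, at 12.6 FPKM with A4368 and 19.5 FPKM in the control, and with a log2 ratio of -0.59 lay just past the 1.5-fold limit. After the rescaling, or with a pseudocount of 5, it no longer passed. IGFBP1, an insulin-repressed liver gene, was 2.42-fold higher from a low level, at 2.64 FPKM with A4368 and 1.09 FPKM in the control, a log2 ratio of 0.80, and did not pass with a pseudocount of 5. IGFBP4 was at 1.18 FPKM with A4368 and 1.79 FPKM in the control, 1.52-fold lower by plain ratio, with a log2 ratio of -0.36. Of the 10 genes of this list 5 had values. On the log2 scale 1 was lower and 1 higher by at least 1.5-fold, where 2.12% of all kept genes were lower and 1.08% higher. INS and IGF1 were not listed.

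AXL and its ligand GAS6 were not listed, but both relatives of AXL were. TYRO3 was 1.61-fold lower, at 14.9 FPKM with A4368 and 24.0 FPKM in the control. MERTK was at 2.36 FPKM with A4368 and 1.79 FPKM in the control. PROS1, which encodes protein S, a ligand of TYRO3 and MERTK, was at 26.9 FPKM with A4368 and 29.6 FPKM in the control. Of the distinct 31-base words of TYRO3, 15.0% also occur in other genes, among them the pseudogene TYRO3P, so part of its reads could have been divided between copies.

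Set among all 58 receptor tyrosine kinases of the human genome that were looked up, 23 had values and 22 a mean of at least 1 FPKM. Of these 22, 3 were lower by at least 1.5-fold, namely EPHA2, TYRO3 and FGFR2, and 0 were higher, where 2.12% of all kept genes were lower and 1.08% higher. TYRO3 and FGFR2, with log2 ratios of -0.65 each, did not pass the limit with a pseudocount of 5, where EPHA2 did. The next lowest was DDR1, a collagen receptor, 1.39-fold lower at 7.67 FPKM with A4368 and 10.6 FPKM in the control. The other Eph receptors kept were EPHB4, EPHA1, EPHA3 and EPHA7, and of these EPHB4 was the most abundant, at 31.9 FPKM with A4368 and 33.3 FPKM in the control. The 13 kept receptor kinases outside the list had a median log2 ratio of -0.06, against -0.07 for the 9.

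**Figure D2:**
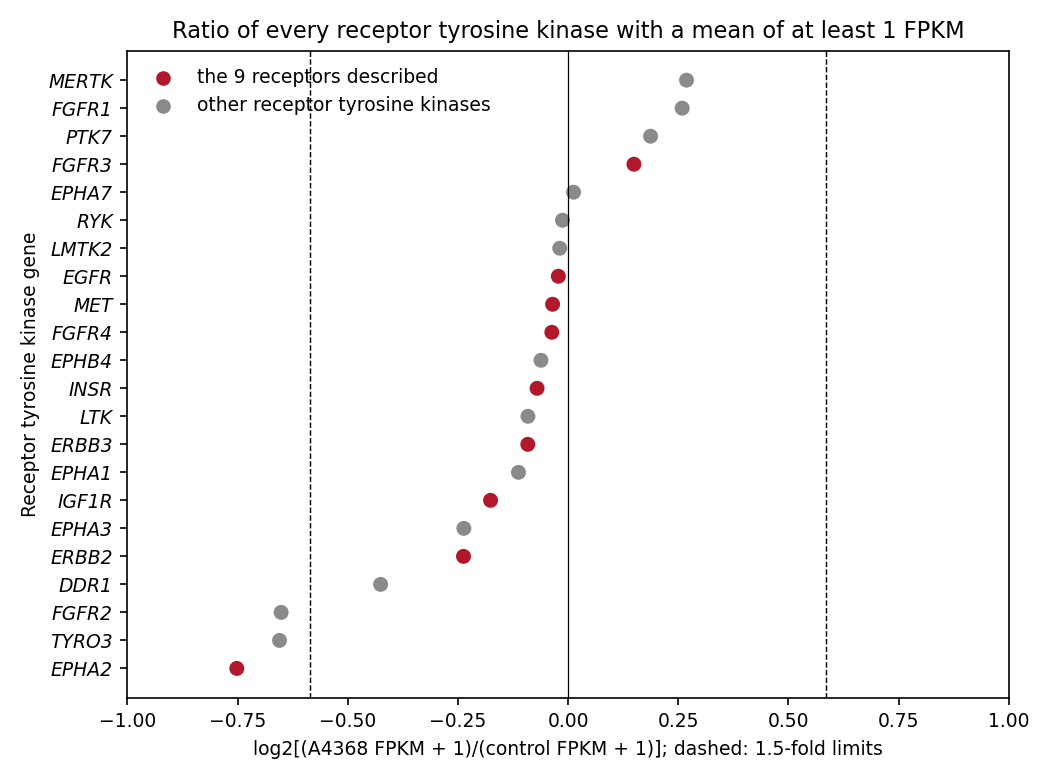
Log2 ratio of A4368 to control (horizontal axis) of the 22 receptor tyrosine kinases with a mean of at least 1 FPKM, 1 point per gene, with the 9 receptors described in red and the others in grey. EPHA2 at -0.75, TYRO3 at -0.65 and FGFR2 at -0.65 lie left of the dashed 1.5-fold limit, and the highest point, MERTK, is at 0.27.

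**Figure D3:**
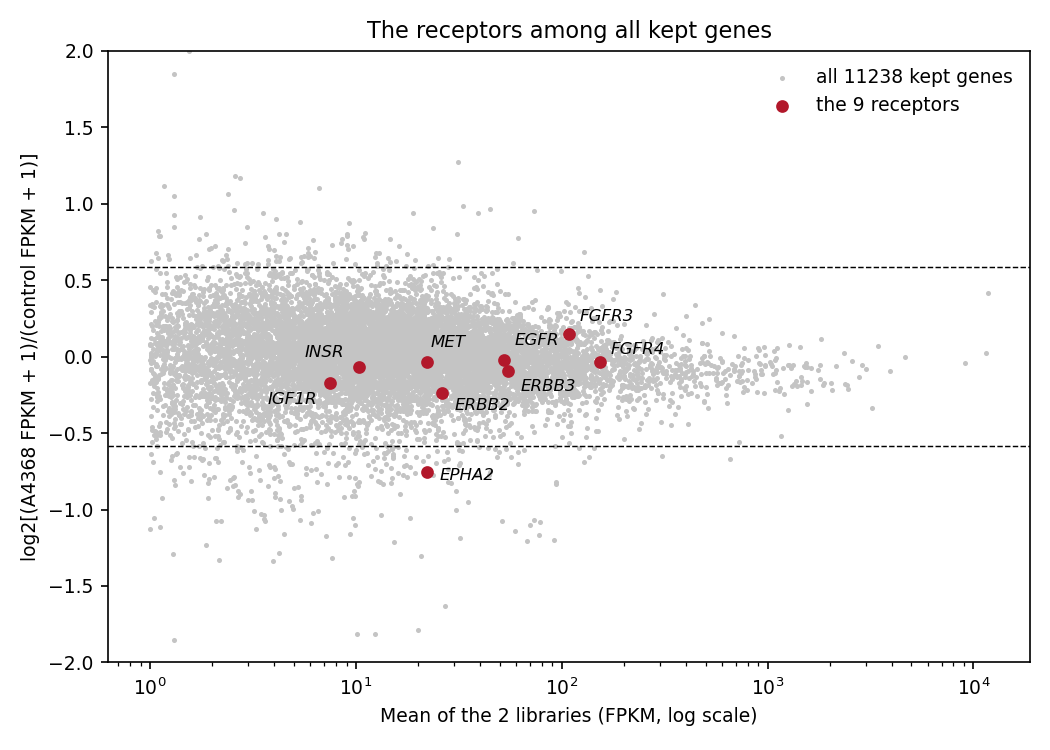
Log2 ratio (vertical axis) against the mean FPKM of the libraries (horizontal axis, log scale) for all 11238 kept genes in grey and the 9 receptors in red, with dashed lines at the 1.5-fold limits; 7 genes lie beyond the range shown. EPHA2 lies below the lower line and the other 8 receptors within the dense band of genes.

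Of 24 adaptors and docking proteins, which carry the signal from the receptors, 21 had values and 0 passed 1.5-fold, with a median log2 ratio of -0.03. With 2.12% of all kept genes lower and 1.08% higher by that limit, a count of 0 in a list of this size is near the background and says nothing particular about it. GRB2, the adaptor that links receptors to RAS, was the most abundant, at 66.6 FPKM with A4368 and 67.9 FPKM in the control. SOS1, the exchange factor it recruits, had the largest ratio, 1.34-fold higher at 13.2 FPKM with A4368 and 9.84 FPKM in the control, and SHC2 was 1.17-fold lower.

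All 27 genes of a list for receptor inhibition and downregulation had values. The list also holds GRB7, an adaptor gene, at 24.5 FPKM with A4368 and 29.6 FPKM in the control. Of the 26 kept 0 passed 1.5-fold on the log2 scale, again near the background of 2.12% lower and 1.08% higher. Their median log2 ratio was -0.03. CBLC, an epithelial ubiquitin ligase for EGFR, was the lowest, at 8.33 FPKM with A4368 and 12.7 FPKM in the control. CBLC was 1.52-fold lower by plain ratio, with a log2 ratio of -0.55, and passed the limit with a pseudocount of 0.1. Its relative CBLB was at 4.71 FPKM with A4368 and 5.99 FPKM in the control. The phosphatase gene PTPRF was the most abundant, at 68.2 FPKM with A4368 and 76.2 FPKM in the control. ERRFI1, the feedback inhibitor of EGFR and ERBB2 and named after its value was seen, was 1.18-fold lower, at 39.5 FPKM with A4368 and 46.7 FPKM in the control.

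EPHA2 also belongs to a list of genes known to follow ERK activity. Of 19 such genes 15 had values, and on the log2 scale 7 were lower by at least 1.5-fold and 0 higher. On that scale 3 were lower by at least 2-fold, where 0.436% of all kept genes were. SPRY4, past 2-fold by plain ratio, was not among the 3, with a log2 ratio of -0.69. Without EPHA2, 6 of 14 were lower by at least 1.5-fold, with a median log2 ratio of -0.54. Of all kept genes 2.12% were lower by that limit, and their median was 0.01. The MAP kinase phosphatase gene DUSP4 was 2.58-fold lower, at 1.78 FPKM with A4368 and 4.59 FPKM in the control. The receptor feedback inhibitors SPRY1 and SPRY4 were 1.80-fold and 2.05-fold lower, SPRY1 at 8.42 FPKM with A4368 and 15.2 FPKM in the control and SPRY4 at 1.40 FPKM with A4368 and 2.87 FPKM in the control. PHLDA1 was 1.62-fold lower, at 21.3 FPKM with A4368 and 34.5 FPKM in the control. ETV4 and IER3 completed the genes past the limit. ETV4 was 2.88-fold lower, at 3.93 FPKM with A4368 and 11.3 FPKM in the control. IER3 was at 46.7 FPKM with A4368 and 99.2 FPKM in the control. The count of 7 became 5 with a pseudocount of 5 or with the filter at 5 FPKM, and 8 with a pseudocount of 0.1. MYC, at 60.2 FPKM with A4368 and 65.1 FPKM in the control, differed little, and EGR1 was the member with a higher value, at 8.55 FPKM with A4368 and 7.56 FPKM in the control. The list was known from earlier results of these data to hold lower genes, so its direction is a description. ERK activity was not measured in these libraries, and a link between it and the level of EPHA2 was not tested.

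**Figure D4:**
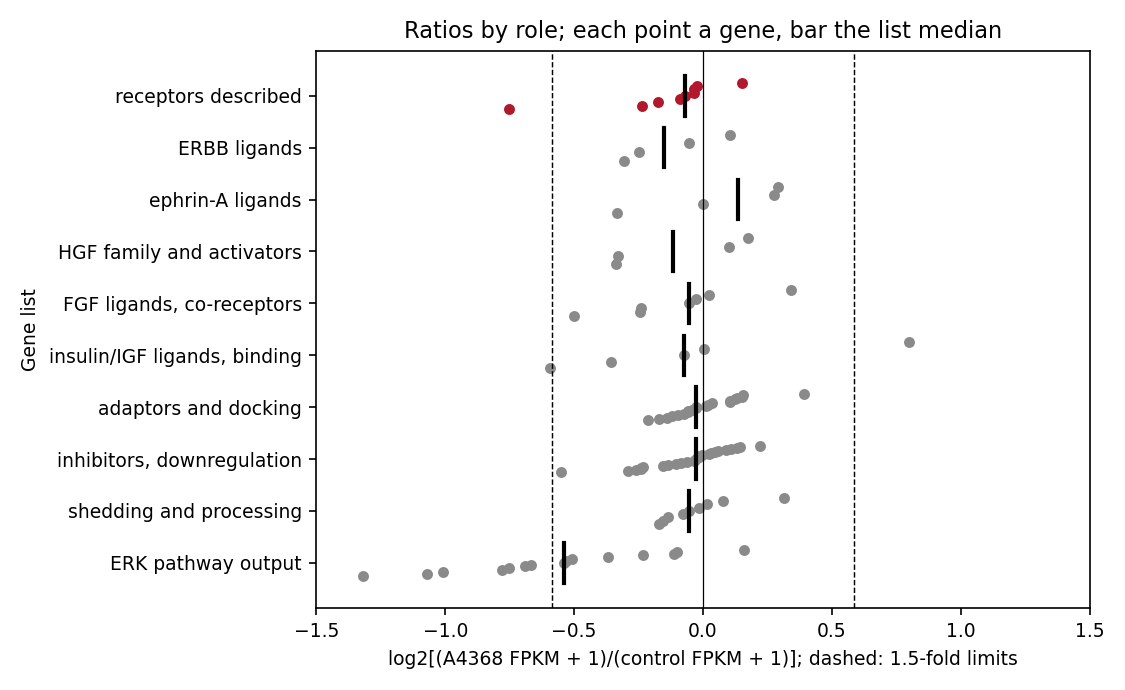
Log2 ratio of A4368 to control (horizontal axis) of each kept gene, by role (rows), with a black bar at each list's median and dashed lines at the 1.5-fold limits; EPHA2 appears both among the receptors and in the ERK list. The medians run from -0.54 for the ERK list to 0.14 for the ephrin-A ligands, and that of the receptors is -0.07.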

How the data were processed

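Total RNA of 1 A4368-treated and 1 untreated Hep3B culture had been sequenced. Per the submitters' processing notes, TopHat2 2.0.12, Bowtie2 2.2.3 and Cufflinks were used with the build hg19, and the deposited table, whose header names no unit, was read as FPKM. Values are not counts and depth is unknown, so no interval, detection limit or count test applies. The lowest mean of a gene with values was 0.496 FPKM. Why other genes had no values was not examined, so a gene not listed cannot be read as low or absent. Of 24302 lines 11511 held values, and a filter on the mean of both libraries at 1 FPKM left 11238 genes. Ratios used a pseudocount of 1, which understates the change of low genes. The arithmetic of ratios and limits was tested on simulated data, which says nothing of the spread between cultures.

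Named were all members, other receptor tyrosine kinases by level, and from each pathway list the genes past 1.5-fold or else the 2 with the largest absolute ratio, plus the most abundant. Further ligands, partners and relatives of a receptor were named after their values were seen. Members and lists were chosen with earlier results of these data known. Shared words and overlaps used GENCODE release 29, which is on GRCh38, and promoters the RefSeq table. No protein sequences were used. Python 3.11.15, numpy 2.4.6, pandas 2.3.3 and matplotlib 3.10.9 were used.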

Additional observations from a re-analysis of the deposited data

How the results depend on the processing

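The EPHA2 call held under pseudocounts of 0.1 and 5 and under the rescaling. It ended at a 2-fold limit, where 0 of the 9 receptors were lower (0.436% of kept genes were). Centring left the EPHA2 log2 ratio at -0.75. Leaving out the filter or setting it at 5 FPKM cannot alter the ratio of a gene at the level of EPHA2. The number of receptors with any lower value was 8, or 5 after the rescaling, and the summed receptor level ran from 96.7% to 100.1% of the control. Over all kept genes, 238 were lower and 121 higher by 1.5-fold. These counts were 369 and 259 with a pseudocount of 0.1, 78 and 20 with a pseudocount of 5, 140 and 58 with the filter at 5 FPKM, and 49 and 13 at a 2-fold limit. The rescaling gave 260 lower and 259 higher, and by its construction enlarges all values so that the pseudocount weighs less. It moved the share of higher calls from 33.7% to 49.9% and the median ratio of all kept genes from 0.01 to 0.06 log2 units. A ratio, median or summed level was taken as unmoved when it shifted by less than 0.26 log2 units. This is the SD of ratios over kept genes, used since no replicate spread exists. A count was taken as unmoved when equal or within a factor of 1.5. All receptors but EPHA2 had ratios closer to no change than 0.26, so they could change sign and still be taken as unmoved. No paired analysis was possible because each group has 1 library. With FPKM alone, the counting error of the lower receptors, INSR and IGF1R, cannot be given.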

Other observations

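Of 12 genes that process receptors and their ligands, 9 had values, 0 passed 1.5-fold and the median log2 ratio was -0.06. As 2.12% of all kept genes were lower and 1.08% higher by that limit, a count of 0 of 9 is near the background. FURIN, the convertase that cleaves the INSR, IGF1R and MET precursors, was at 108 FPKM with A4368 and 113 FPKM in the control. ADAM9, a surface metalloprotease, was the most abundant by mean, at 105 FPKM with A4368 and 117 FPKM in the control. ADAM15 had the largest ratio, 1.26-fold higher at 15.1 FPKM with A4368 and 11.9 FPKM in the control, and PCSK5, a convertase related to FURIN, was 1.14-fold lower. ADAM17, the main sheddase of EGFR ligands, was 1.06-fold higher with A4368 and was named after its value was seen.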
